A study of Arabidopsis thaliana with 24 samples.

Results

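The comparison described here is that of wild type Arabidopsis thaliana hypocotyls, the seedling stem, after 6 h of white light with hypocotyls kept in the dark. It rests on 6 of the 24 samples of the series, 3 dark and 3 lit, which the labels call biological repeats. Germination was started with 3 h of white light (70 µmol photons per m2 and s), which 5 min of far-red (2 µmol, same unit) ended. The seedlings then grew for 4 days in darkness and were harvested directly or after 6 h under that white light, and cotyledons and hypocotyls were collected separately. The accession of the wild type is not given in the labels, and the number of plants in a sample is not stated there either. Wild type hypocotyls after 1 h of light (3 samples) are set beside these values, and wild type cotyledons, dark and after 6 h of light (3 samples each), serve where the organs are compared.

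A seedling that germinates below ground lives on its reserves, with a long hypocotyl that pushes the closed cotyledons towards the surface. Light perceived by phytochromes and cryptochromes ends this program, because it removes the PIF transcription factors and takes the COP1 and SPA ubiquitin ligase off regulators such as HY5. The hypocotyl then stops elongating and its plastids begin to turn into chloroplasts. Elongation in the dark depends on auxin, brassinosteroid and gibberellin, on wall-loosening proteins, and on water uptake into the vacuole, while greening needs chlorophyll synthesis, antenna proteins and a plastid machinery for transcription, translation and import.

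The authors deposited 1 FPKM (fragment density, scaled to transcript length and library size) value per group, so values of single samples, and whether the samples of the groups overlap, are not analysed here. Each FPKM below is such a group value, given in the order dark, 1 h and 6 h. A log2 fold is log2((light + 1)/(dark + 1)), a difference of levels that is damped for genes near 0. The standard error (SE) printed after it is that of the authors' log2 ratio without the added 1, recovered as the ratio over the authors' test statistic. A gene is said to rise or fall where its q in the authors' deposited table was under 0.05. The smallest q in the authors' deposited table, 0.000364, was shared by 3944 genes, and a gene said to rise or fall has this q unless another is given. A lower level in bulk tissue can come from fewer cells of a type or from less RNA in each cell, and these cannot be told apart here.

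The authors' deposited table listed 33557 genes, of which 19871 were tested. Of these 7805, or 39.3%, were called at 6 h, 3440 higher (17.3%) and 4365 lower (22.0%). Among the called genes 1924 rose and 1863 fell by at least 2-fold, while 262 rose and 150 fell by at least 8-fold. The median log2 fold of all tested genes was -0.10, and the medians of lists below are to be read against it. Counts of lists are to be read against the 17.3% higher and 22.0% lower of all tested genes. As an alternative, called centred below, ratios were measured from the median ratio and judged by a normal p from the authors' SE. The normal p alone gave 1910 higher and 1968 lower genes, 49.3% higher among those called in place of 44.1%, and with the centring as well 2242 were higher and 1640 lower, or 57.8% higher. The authors' p-values are thus less strict than their SEs, and the q of a call cannot be derived from the SE printed beside it. The median SE of a log2 ratio was 0.44, with 0.58 for genes averaging 1 to 5 FPKM and 0.38 for genes over 50 FPKM. Another 7 genes were left untested as too abundant, among them the catalase gene CAT3 and the vacuolar aquaporin gene TIP1;2, both listed at 0 in the dark and at 3500 and 7208 FPKM after 6 h. Since a value of 0 there marks a failed estimate, no fold is given for them.

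**Figure D1:**
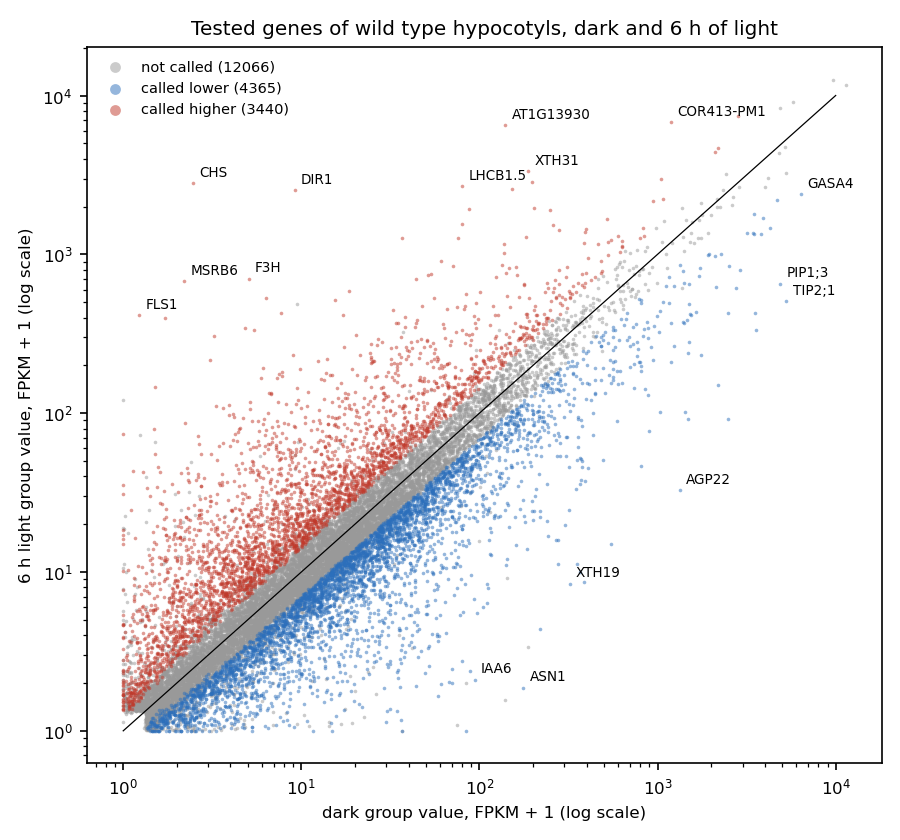
Group values of the tested genes in the dark (x axis) and after 6 h of light (y axis), as FPKM + 1 on log axes; each point is a gene, red where called higher (3440), blue where called lower (4365) and grey where not called, and the line marks equal values. The flavonoid genes CHS, FLS1 and F3H lie far above the line and the aquaporin genes TIP2;1 and PIP1;3 far below it at high dark levels.

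The largest rises were led by flavonoid genes, which are taken up with their pathway below. Beside them stood MSRB6, for a methionine sulfoxide reductase that repairs oxidised proteins (TAIR10 chromosome 4, 2449560 to 2451589), with 1.21, 44.8 and 675 FPKM and a log2 fold of 8.26 (SE 0.65). DIR1, for a lipid-transfer protein known from systemic resistance (chromosome 5, 19646232 to 19646802), had 8.19, 39.2 and 2530 FPKM, a log2 fold of 8.11 (SE 0.56). Most of the rise of DIR1 thus came after the first hour. The thiolase gene KAT5, which shares its locus with another gene, rose by 6.59 (SE 1.83; q = 0.00544 in the authors' deposited table), and AT3G57020, for a protein of the calcium-dependent phosphotriesterase superfamily, by 7.85 (SE 0.64). ATCG00300 of the chloroplast genome was listed at 0 in the dark and at 97.3 and 73.1 FPKM in light.

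The largest fall was that of ASN1, the asparagine synthetase gene known to be expressed in darkness and sugar shortage (chromosome 3, 17437884 to 17441243), with 175, 66.4 and 0.868 FPKM and a log2 fold of -6.56 (SE 0.54). Wall and surface genes made up much of the rest. AT4G25260, for a protein of the invertase and pectin methylesterase inhibitor superfamily, went from 218 to 64.5 and 3.36 FPKM (log2 fold -5.65, SE 0.51), and the peroxidase family gene AT4G30170 from 387 to 231 and 7.60 FPKM (-5.50, SE 0.41). AGP22, for an arabinogalactan peptide of the cell surface, stood at 1330 and 1027 FPKM in the dark and at 1 h and at 31.9 FPKM after 6 h (-5.34, SE 0.42). The glycosyl hydrolase gene GH9B13 had a log2 fold of -5.22 (SE 0.50), and MSRB9, a relative of MSRB6, one of -5.21 (SE 0.41). AT4G24231, an uncharacterised short gene, was listed at 83.3 FPKM in the dark and at 0 in both light groups (q = 0.0410 in the authors' deposited table). AT3G60650, also uncharacterised, had 35.8 and 7.72 FPKM in the dark and at 1 h and was listed at 0 after 6 h.

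Several of the most abundant transcripts of the organ changed as well. GASA4, of a gibberellin-regulated peptide family, was the highest of the called genes in the dark, with 6406, 6722 and 2399 FPKM (log2 fold -1.42, SE 0.49). COR413-PM1, for a cold-regulated plasma membrane protein, had 1185, 3793 and 6760 FPKM (2.51, SE 0.48), and AT1G13930, annotated as oleosin-B3-like, had 139, 973 and 6479 FPKM (5.53, SE 0.43). The S-adenosylhomocysteine hydrolase gene SAHH2, which keeps methylation reactions running, rose from 197 to 950 and 2864 FPKM (3.86, SE 0.47). AT1G12080, annotated as similar to a vacuolar calcium-binding protein, fell from 3542 to 2591 and 427 FPKM (-3.05, SE 0.40). The nitrilase gene NIT1 rose from 1051 to 1440 and 2958 FPKM (1.49, SE 0.47). Among called genes, the highest levels had thus passed from GASA4 and aquaporins in the dark to COR413-PM1, AT1G13930 and the dehydrin gene AT1G54410, which went from 2842 to 7391 FPKM (1.38, SE 0.50).

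The promoters of 6 genes are shown because they carry the G-box CACGTG, the core that PIF proteins and HY5 are both known to bind, and because the genes went in opposite directions. CHS, F3H, CHIL and ASN1 are those among the 10 largest rises and 10 largest falls whose window holds it, and ELIP1 and IAA19 stand for greening and growth. Each sequence gives the 250 bases before the start of the gene in RefSeq's annotation of TAIR10.1, 5′ to 3′ on the gene's strand, with the G-box in capitals. The windows are chr5:4488226-4488475 (plus strand) for CHS, chr3:19024942-19025191 (plus) for F3H and chr5:1563036-1563285 (plus) for CHIL. Those of the others are chr3:8085670-8085919 (minus strand) for ELIP1, chr3:17441432-17441681 (minus) for ASN1 and chr3:5263751-5264000 (plus) for IAA19.
CHS: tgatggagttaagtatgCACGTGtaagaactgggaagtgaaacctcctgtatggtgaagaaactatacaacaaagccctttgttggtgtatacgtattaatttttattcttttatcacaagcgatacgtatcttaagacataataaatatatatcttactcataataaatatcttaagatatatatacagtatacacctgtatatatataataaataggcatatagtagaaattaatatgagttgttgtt
F3H: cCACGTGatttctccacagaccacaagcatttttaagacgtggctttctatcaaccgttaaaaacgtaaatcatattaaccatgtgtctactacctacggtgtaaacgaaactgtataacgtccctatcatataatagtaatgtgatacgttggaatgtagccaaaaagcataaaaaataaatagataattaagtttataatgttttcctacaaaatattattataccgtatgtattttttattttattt
CHIL: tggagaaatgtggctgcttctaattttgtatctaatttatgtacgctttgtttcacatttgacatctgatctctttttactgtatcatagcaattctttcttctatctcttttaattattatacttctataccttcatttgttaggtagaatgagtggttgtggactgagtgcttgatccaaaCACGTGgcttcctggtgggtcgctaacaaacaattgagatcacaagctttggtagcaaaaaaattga
ELIP1: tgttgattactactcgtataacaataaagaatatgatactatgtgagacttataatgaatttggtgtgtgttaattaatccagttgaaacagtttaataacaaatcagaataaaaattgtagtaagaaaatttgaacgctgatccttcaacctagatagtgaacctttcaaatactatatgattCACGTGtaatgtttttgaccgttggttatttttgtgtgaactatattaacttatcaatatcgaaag
ASN1: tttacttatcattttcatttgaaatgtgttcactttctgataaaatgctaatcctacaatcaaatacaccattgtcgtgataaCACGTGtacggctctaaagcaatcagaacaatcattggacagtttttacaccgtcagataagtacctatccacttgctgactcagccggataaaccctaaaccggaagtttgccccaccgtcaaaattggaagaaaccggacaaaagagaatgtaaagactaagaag
IAA19: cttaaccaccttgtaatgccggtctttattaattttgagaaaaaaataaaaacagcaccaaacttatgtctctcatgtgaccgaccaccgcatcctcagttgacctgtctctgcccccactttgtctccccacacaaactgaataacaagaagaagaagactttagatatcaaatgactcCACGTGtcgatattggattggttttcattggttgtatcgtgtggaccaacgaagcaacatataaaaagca

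Each of the 6 windows held 1 G-box, which began at position -233 from the annotated start in CHS, -249 in F3H, -67 in CHIL, -66 in ELIP1, -167 in ASN1 and -70 in IAA19. Over all genes 5.82% of 32809 windows held a G-box on either strand. The share was 8.70% of 1920 genes that rose and 8.07% of 1859 genes that fell by at least 2-fold, against 7.09% of tested genes that were not called. At 8-fold or more it was 11.2% of 260 risen and 9.33% of 150 fallen genes. The G-box was therefore about as common before genes that fell as before genes that rose. A wider gap was seen for GGCCCA, a motif of TCP factor sites and of genes for ribosomal proteins, with 19.7% of the genes that rose and 6.51% of those that fell by at least 2-fold, and 17.9% of genes not called. GGGCC, named SORLIP2 and found as its reverse complement within GGCCCA, was held by 22.3% and 9.41%, and by 20.5% of genes not called, so both motifs were scarce before fallen genes rather than frequent before risen ones. The evening element AAAATATCT was held by 3.65% of genes that rose and 2.04% of those that fell at least 2-fold, and by 2.26% of genes not called. The ABRE core ACGTGTC, which overlaps the G-box where a C precedes it, was held by 5.57% and 3.44%, and by 4.16% of genes not called. A match of letters is a description of these windows and not evidence of a bound site.

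Greening genes rose across nearly the whole list. Of 206 tested nuclear genes of photosynthesis, pigments and plastid biogenesis, 177 rose and 4 fell, where 17.3% of all tested genes rose and 22.0% fell. Their median log2 fold was 2.18, against -0.10 over all tested genes, and their summed level went from 4389 to 30975 FPKM. At 1 h the median of the same genes was 0.77, against 0.03 over all tested genes. The 1 h and 6 h comparisons use the same dark samples, so their values are set side by side and not tested against each other.

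**Figure D2:**
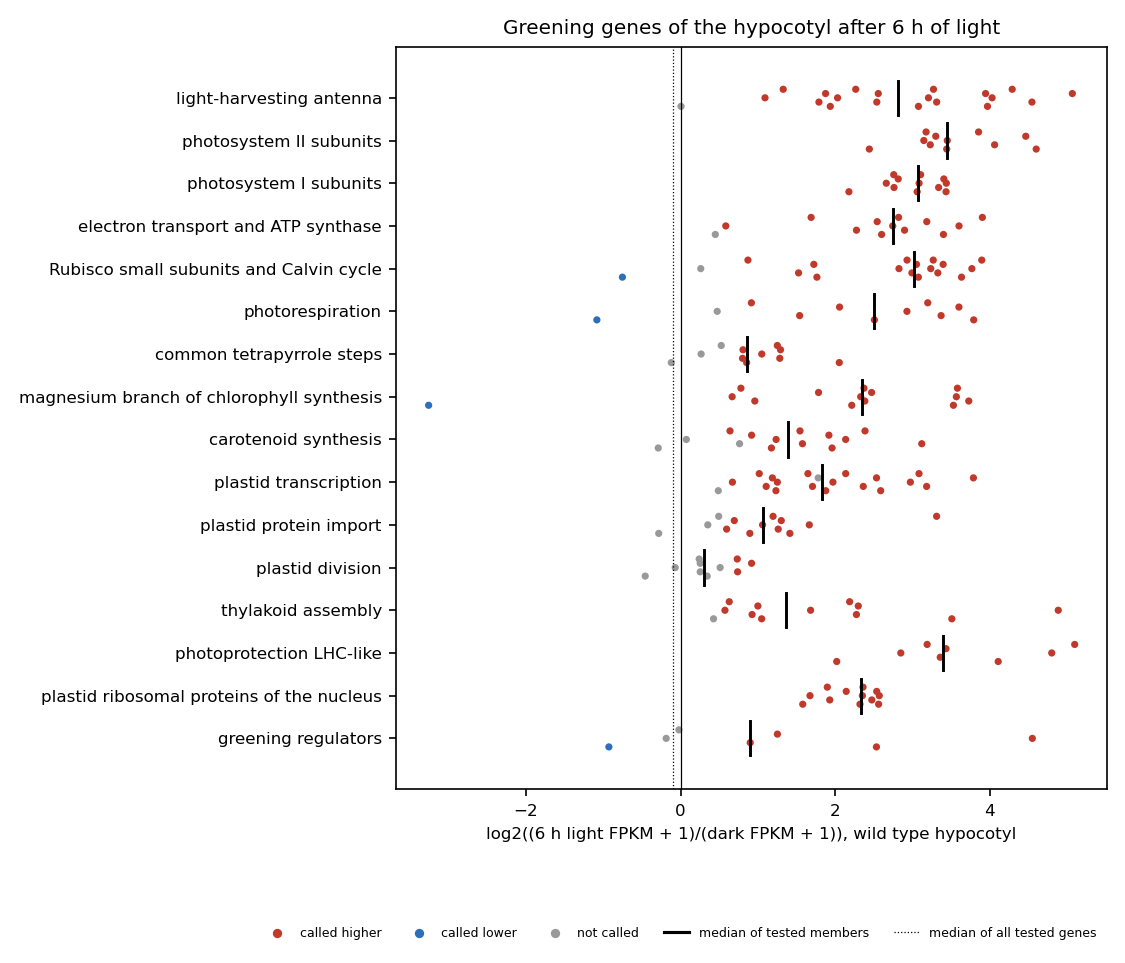
Log2 folds at 6 h (x axis) of the tested members of 16 greening lists (rows); each point is a gene, red where called higher, blue where called lower and grey where not called, with bars at list medians. Nearly all points lie to the right of 0, with PORA at -3.26 as the lowest.

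Of 20 genes of the light-harvesting antenna, which binds most of the chlorophyll, 19 rose, with a median of 2.82. LHCB1.5, for a major antenna protein of photosystem II, led them with 79.1, 697 and 2692 FPKM, a log2 fold of 5.07 (SE 0.55). It shares its locus with another gene in the annotation. LHCB2.1 had 6.52, 43.9 and 175 FPKM (4.55, SE 0.46), and the photosystem I antenna gene LHCA1 had 13.0, 101 and 218 FPKM (3.97). LHCB4.3 was the exception, with 16.3 FPKM in the dark and 16.4 FPKM at both light times. LHCB1.1, LHCB1.2, LHCB1.3 and LHCB2.2 have near copies between which reads can be split.

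All 11 nuclear genes of photosystem II and all 12 of photosystem I rose, with medians of 3.45 and 3.08. PSBS, which senses lumen acidity and dissipates excess light energy, had 16.2, 295 and 417 FPKM (log2 fold 4.60, SE 0.42). Most of its rise fell in the first hour. PSBR, for a subunit near the oxygen-evolving complex, had 86.4, 479 and 1934 FPKM (4.47, SE 0.43), at a locus it shares, and PSBTN 74.8, 195 and 1267 FPKM (4.07, SE 0.37). In photosystem I the range was narrow, from 2.18 for PSAD2 to 3.44 for PSAG, which has a near copy. Of 13 genes for electron carriers and ATP synthase 12 rose, led by the ferredoxin gene FD1 with 59.7, 695 and 909 FPKM (3.91, SE 0.38). PGRL1B, a member of the cyclic electron flow pathway, was not called, at 15.2 and 21.1 FPKM.

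Carbon fixation genes rose as well. Of 18 genes for the small subunit of Rubisco and the Calvin cycle 16 rose, with a median of 3.02 at 6 h and 1.23 at 1 h. RBCS1A, the most abundant small subunit gene, had 201, 433 and 1945 FPKM (log2 fold 3.27, SE 0.45), and RCA, for the activase that clears Rubisco of inhibitors, 31.7, 94.8 and 446 FPKM (3.77, SE 0.40). GAPB, for a plastid glyceraldehyde phosphate dehydrogenase, went from 5.19 to 16.1 and 91.3 FPKM (3.9, SE 0.42). RBCS2B alone of this list fell, from 35.3 to 20.6 FPKM (-0.75; q = 0.0107 in the authors' deposited table), and it has a near copy, so its reads may be split with other small subunit genes. Among 11 tested photorespiration genes, which recycle the product of Rubisco's oxygenase reaction, 9 rose and 1 fell. SHM1, for the mitochondrial serine hydroxymethyltransferase, rose from 7.20 to 16.7 and 113 FPKM (3.79, SE 0.40). GLYK, for glycerate kinase at the end of the pathway, fell from 95.8 to 36.7 and 44.7 FPKM (-1.08). Neither fall was called under the centred alternative.

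The steps that all tetrapyrroles share changed less than those of chlorophyll alone. Of 11 common steps 8 rose, with a median of 0.86, led by GSA2, for glutamate semialdehyde aminotransferase, with 5.86, 9.84 and 27.5 FPKM (2.05, SE 0.40). HEMA1, for glutamyl-tRNA reductase at the entry of the pathway, went from 24.4 to 42.3 and 43.5 FPKM (0.81, SE 0.36; q = 0.00128 in the authors' deposited table). In the magnesium branch 13 of 14 genes rose, with a median of 2.35. CHLH, for the chelatase subunit that binds protoporphyrin, had 5.86, 86.1 and 81.3 FPKM (3.58, SE 0.41), and its activator GUN4 had 4.82, 56.1 and 76.2 FPKM (3.73, SE 0.47). Both were near their 6 h level after 1 h. CHLG, for chlorophyll synthase at the end of the branch, was later, with 2.59, 10.6 and 40.5 FPKM (3.53, SE 0.48). DVR, for divinyl reductase, had 0.789, 2.82 and 8.93 FPKM (2.47, SE 0.60).

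The protochlorophyllide reductase genes, whose enzymes need light to work, took different courses. PORA, the form of dark-grown plants, had 15.5, 16.9 and 0.727 FPKM, a log2 fold of -3.26 (SE 0.58), so that its level was still at the dark value at 1 h. PORB rose from 26.6 to 29.9 and 46.5 FPKM (0.78, SE 0.38; q = 0.00237 in the authors' deposited table). PORC, the form of lit leaves, had 1.39, 4.92 and 11.5 FPKM (2.39, SE 0.54). After 6 h PORB was the highest and PORA the lowest of these genes. CAO, which makes chlorophyll b, was highest at 1 h, with 9.32, 36.4 and 15.4 FPKM (0.67, SE 0.38; q = 0.00986 in the authors' deposited table).

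Of 14 carotenoid genes 11 rose, with a median of 1.39. PSY, for phytoene synthase at the entry of the pathway, had 8.22, 44.3 and 34.9 FPKM (1.96, SE 0.39), and DXS, which feeds it with isoprenoid precursors, 25.2, 106 and 75.6 FPKM (1.55, SE 0.37). VDE, the violaxanthin de-epoxidase of heat dissipation, came later with 2.78, 3.41 and 15.6 FPKM (2.14). All 8 genes for LHC-like photoprotection proteins rose, with a median of 3.4 at 6 h and 2.57 at 1 h. ELIP1, for an early light-induced protein that binds free pigment (chromosome 3), had 35.7, 821 and 1259 FPKM (5.10, SE 0.40), and ELIP2 had 11.4, 232 and 213 FPKM (4.11, SE 0.42).

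The machinery of the plastid rose late. Of 20 genes for plastid transcription 18 rose, with a median of 1.83 at 6 h and 0.24 at 1 h. PTAC7, a partner of the plastid RNA polymerase, stood at 13.9, 17.3 and 116 FPKM (2.98, SE 0.45) at a shared locus, and RPOTP, for the phage-type polymerase of plastids, at 1.3, 1.4 and 12.9 FPKM (2.59, SE 0.44). FLN1, a kinase-like protein of the polymerase complex, went from 1.12 to 1.61 and 18.3 FPKM (3.19, SE 0.56). The sigma factor gene SIG5, known to respond to blue light and stress, was the exception in time, with 1.83, 192 and 38.1 FPKM (3.79, SE 0.45). All 12 nuclear genes of plastid ribosomal proteins rose, within a range of 1.58 to 2.57, and their median was 0.39 at 1 h. PRPS17, at a shared locus, had 95.1, 104 and 490 FPKM (2.35, SE 0.37). In protein import 10 of 13 genes rose (median 1.06), among them TOC159, the receptor for photosynthetic precursors, with 32.9, 34.6 and 69.7 FPKM (1.06, SE 0.39). In thylakoid assembly 11 of 12 rose (median 1.37), led by PSB28 with 2.65, 30.9 and 107 FPKM (4.89, SE 0.57). Plastid division changed least, with 3 of 10 genes higher, or 1 under the centred alternative, and a median of 0.30.

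The regulators of greening had a course of their own. HYH, the homologue of HY5, had 6.74, 116 and 181 FPKM (log2 fold 4.55, SE 0.50), and HY5, the bZIP factor that turns on light-regulated genes, had 43.8, 311 and 106 FPKM (1.25, SE 0.36). CIA2, a regulator of import and plastid ribosomal protein genes, had 2.27, 27.9 and 17.9 FPKM (2.54, SE 0.41), and the GATA factor gene GNC 3.35, 15.7 and 7.14 FPKM (0.90, SE 0.41). GLK2, a GARP factor for antenna and chlorophyll genes, was at 49.6 FPKM in the dark and 141 FPKM at 1 h, and had fallen to 25.6 FPKM at 6 h (-0.93, SE 0.38), a fall that was not called under the centred alternative. Its close relative GLK1 stayed low, with 1.2, 1.46 and 1.17 FPKM. HY5, CIA2, GNC and GLK2 thus were highest at 1 h, before the photosynthetic genes had reached their 6 h levels.

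Genes of growth moved the other way. Of 353 tested genes for wall loosening, water transport, microtubules, growth hormones, hook, cell cycle and cuticle, 190 fell and 34 rose, where 22.0% of all tested genes fell and 17.3% rose. Their median log2 fold was -0.72, against -0.10 over all tested genes, and it was -0.18 at 1 h. Their summed level fell from 76765 to 34324 FPKM, of which aquaporins alone held 41896 and 11047 FPKM. These sums leave out the untested aquaporin gene TIP1;2. Under the centred alternative 127 fell and 19 rose.

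**Figure D3:**
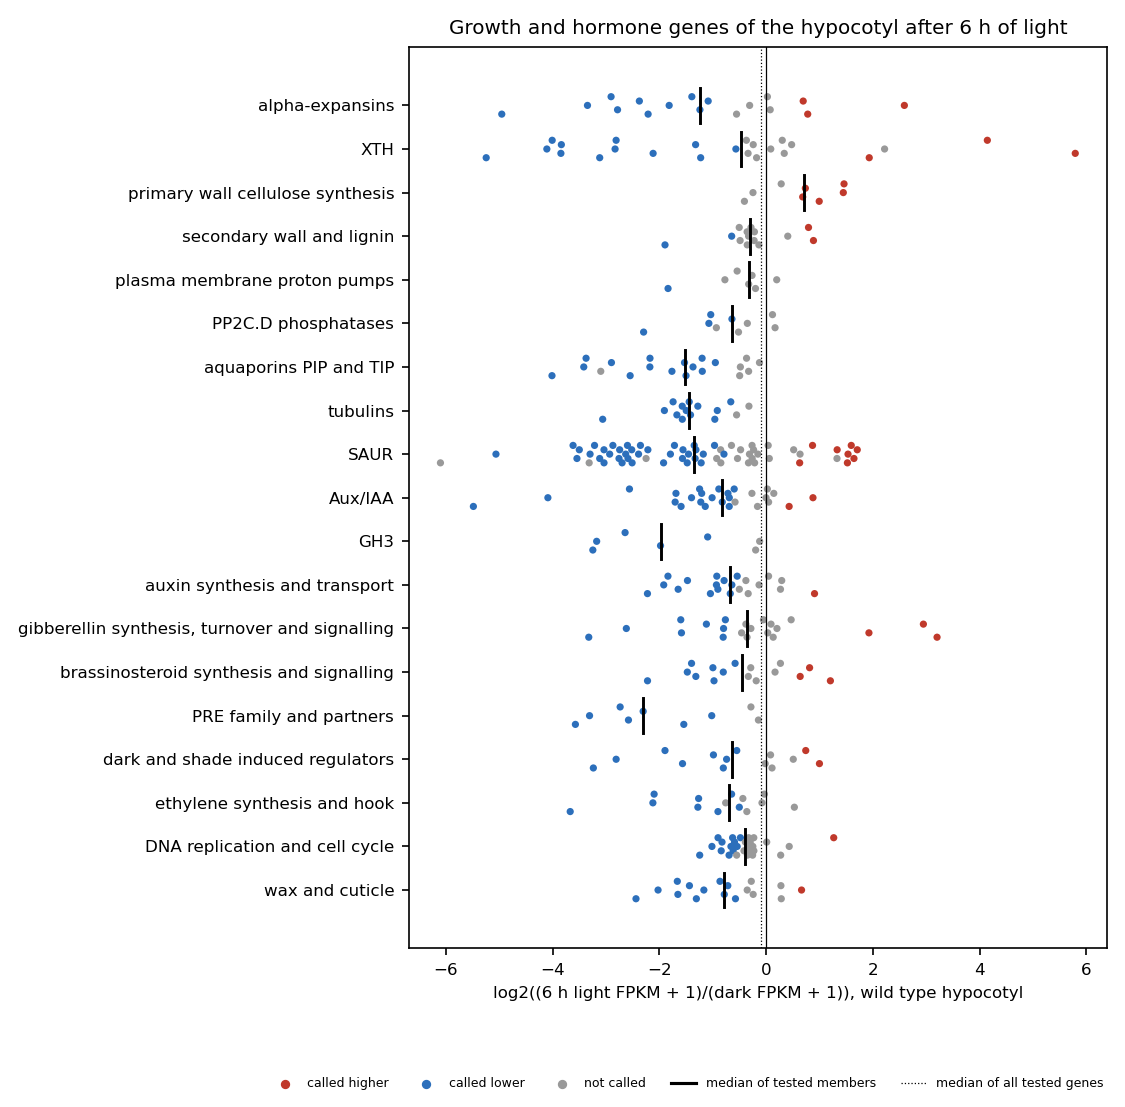
Log2 folds at 6 h (x axis) of the tested members of 19 growth and hormone lists (rows), with points and bars as for the greening lists: red called higher, blue called lower, grey not called, bars at list medians. Tubulin and aquaporin points all lie below 0, whereas XTH32 at 5.79 and XTH31 at 4.14 stand apart from their family.

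Aquaporins, the water channels of the plasma membrane (PIP) and the vacuole (TIP), were among the most abundant transcripts of dark hypocotyls. Of 20 tested 14 fell and 0 rose, and all 20 log2 folds were below 0, with a median of -1.52. TIP2;1 (chromosome 3, 5505404 to 5508414, sharing its locus with another gene) had 5288, 3965 and 508 FPKM, a log2 fold of -3.38 (SE 0.49). PIP1;3 had 4890, 3306 and 654 FPKM (-2.90, SE 0.49), and PIP2;7 had 3581, 2918 and 334 FPKM (-3.42, SE 0.46). PIP2;4 fell furthest, from 1480 to 1137 and 90.6 FPKM (-4.01, SE 0.41). At 1 h the median was -0.32. PIP1;4 and PIP2;3 were not called, at 124 and 114 FPKM and at 228 and 163 FPKM in dark and 6 h light.

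Tubulins, the subunits of the microtubules that guide cellulose deposition, fell together. Of 15 genes 13 fell and 0 rose, with a median of -1.44 at 6 h and -0.10 at 1 h. TUB1 had 201, 239 and 23.2 FPKM (log2 fold -3.06, SE 0.39), TUB5 442, 338 and 131 FPKM (-1.75, SE 0.40), and TUA4 789, 778 and 209 FPKM (-1.91, SE 0.42). TUA4 and 6 other members have near copies in the genome, so a split of reads among them is uncertain, while TUB1 and TUB5 have none by the same search. TUB9 and TUA5 were not called.

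Among 17 tested alpha-expansins, which loosen walls at acid pH, 10 fell and 3 rose, or 1 under the centred alternative. EXPA11 fell from 364 to 196 and 34.8 FPKM (log2 fold -3.35, SE 0.43), EXPA9 from 377 to 225 and 49.3 FPKM (-2.91, SE 0.39) and EXPA8 from 351 to 136 and 50 FPKM (-2.79, SE 0.42). EXPA3, the most abundant in the dark, went from 545 to 492 and 154 FPKM (-1.82, SE 0.41), and EXPA12 from 35.1 to 4.49 and 0.162 FPKM (-4.96, SE 1.02; q = 0.00184 in the authors' deposited table). EXPA16 went the other way, with 0.408, 9.80 and 7.47 FPKM (2.59, SE 0.80). EXPA5 was not called, at 47.1 and 49.7 FPKM.

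In the XTH family, whose enzymes cut and rejoin xyloglucan, 12 of 24 tested members fell (50%) and 3 rose (12.5%). Of all tested genes 22.0% fell and 17.3% rose. XTH19 had 320, 214 and 7.44 FPKM (log2 fold -5.25, SE 0.42), XTH17 275, 234 and 15.0 FPKM (-4.11, SE 0.44) and XTH18 241, 199 and 15.9 FPKM (-3.84, SE 0.40). XTH4, the most abundant of the family in the dark, fell from 3432 to 2863 and 1371 FPKM (-1.32, SE 0.54). In the other direction XTH31 had 187, 450 and 3323 FPKM (4.14, SE 0.47), XTH32 6.70, 60.4 and 425 FPKM (5.79, SE 0.53) and XTH7 142, 207 and 546 FPKM (1.93, SE 0.40). The summed level of the family was therefore similar in dark and light, 6620 and 6224 FPKM, with XTH31 in the place that XTH4 held. Cellulose synthesis of the primary wall did not fall: 5 of 8 tested genes rose, among them CESA2 with 47.5, 60.4 and 131 FPKM (1.44, SE 0.39) and CESA5 with 28.5, 57.4 and 80.1 FPKM (1.46, SE 0.38), or 3 under the centred alternative.

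Acid growth depends on plasma membrane proton pumps, which PP2C.D phosphatases inactivate and SAUR proteins keep active by blocking those phosphatases. Of 7 tested pump genes AHA2 alone was called, with 699, 585 and 195 FPKM (log2 fold -1.84, SE 0.46), while AHA1 stood at 208, 217 and 181 FPKM. Of 9 PP2C.D genes 4 fell, among them PP2C.D7 with 23.1, 15.6 and 3.91 FPKM (-2.30, SE 0.41); the centred alternative left 2. Of 65 tested SAUR genes 36 fell and 8 rose, with a median of -1.35. SAUR16 had 81.6, 18.3 and 7.38 FPKM (-3.30, SE 0.51) and SAUR50 206, 84.9 and 32.4 FPKM (-2.63, SE 0.42). SAUR41, of another branch of the family, rose from 6.71 to 7.65 and 23.1 FPKM (1.64, SE 0.47). The median of the SAUR genes was -0.77 at 1 h. Under the centred alternative 4 in place of 8 rose.

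Auxin response genes fell broadly. Of 27 tested Aux/IAA genes, whose products repress auxin response and are themselves induced by it, 18 fell and 2 rose (median -0.82). IAA19 had 268, 60.6 and 14.8 FPKM (log2 fold -4.09, SE 0.40), and IAA6 93.2, 19.0 and 1.1 FPKM (-5.49, SE 0.65). The abundant IAA7 fell less, with 874, 789 and 373 FPKM (-1.23, SE 0.42), and IAA28 rose, with 31.9, 215 and 59.4 FPKM (0.88, SE 0.39; q = 0.000993 in the authors' deposited table). Of 7 tested GH3 genes, which conjugate hormones to amino acids, 5 fell, with GH3.5 at 116, 48.3 and 11.9 FPKM (-3.18, SE 0.39). Of 21 genes of auxin synthesis and transport 13 fell and 1 rose, among them TAA1, for the aminotransferase of indole pyruvate synthesis, with 19.3, 10.4 and 3.33 FPKM (-2.23, SE 0.45) and the exporter gene ABCB19 with 114, 79.0 and 31.2 FPKM (-1.84, SE 0.39). The centred alternative gave 11 fallen Aux/IAA genes and 6 fallen genes of synthesis and transport.

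Gibberellin genes changed at both ends of the pathway. GA20OX1, which makes precursors of active gibberellin, had 18.7, 3.2 and 0.969 FPKM (log2 fold -3.33, SE 0.61) and GA3OX1, which makes the active form, 64.0, 30.9 and 9.56 FPKM (-2.62, SE 0.39). GA2OX1, which inactivates gibberellin, rose from 1.67 to 38.2 and 23.57 FPKM (3.2, SE 0.56). GA3OX2, a second gene of the activating step, also rose, from 0.789 to 16.2 and 12.8 FPKM (2.95, SE 0.62). The DELLA repressor gene GAI fell from 24.5 to 9.48 and 7.41 FPKM (-1.60, SE 0.39). Of 16 brassinosteroid genes 8 fell and 3 rose. BAS1, which inactivates brassinosteroid, fell from 26.0 to 5.28 and 4.77 FPKM (-2.22, SE 0.42), the receptor gene BRI1 from 77.0 to 59.6 and 27.0 FPKM (-1.48, SE 0.38), and BR6OX2, of the last synthesis step, rose from 49.6 to 85.3 and 116 FPKM (1.2, SE 0.38). Under the centred alternative 4 of the 8 fallen genes were counted in each of these lists.

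PRE proteins, small helix-loop-helix factors that free growth regulators from their inhibitors, and their partners had the lowest median of all lists, -2.31, with 7 of 9 tested members lower and 0 higher. PRE6 had 239, 38.9 and 35.0 FPKM (log2 fold -2.74, SE 0.40) and PRE1 30.6, 5.66 and 1.65 FPKM (-3.58, SE 0.69). IBH1, which PRE proteins hold in check, fell too, from 183 to 84.0 and 62.1 FPKM (-1.54, SE 0.36). PAR2, another member of the list that is not a PRE gene, had 62.8, 68.8 and 5.43 FPKM (-3.31, SE 0.53). The list median is therefore not that of PRE genes alone. Of 14 dark and shade induced regulators 8 fell and 2 rose, or 4 and 1 under the centred alternative. HAT2, a homeodomain factor of shade responses, had 73.5, 17.5 and 6.88 FPKM (-3.24, SE 0.40). The PIF genes themselves did not fall, with PIF3 at 32.3, 38.2 and 54.6 FPKM (0.74, SE 0.36; q = 0.00359 in the authors' deposited table) and PIF1, PIF4 and PIF5 not called.

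For the apical hook and ethylene, 8 of 14 tested genes fell and 0 rose, or 5 under the centred alternative. ACS5, of the step that makes the ethylene precursor, had 18.6, 5.03 and 0.540 FPKM (log2 fold -3.67, SE 0.63), and the hook kinase gene WAG2 97.8, 23.63 and 39.6 FPKM (-1.28, SE 0.39). Of 28 genes of DNA replication and the cell cycle 12 fell by small amounts, but 1 did so under the centred alternative, and the median was -0.40. CDKB2;1, a kinase gene of mitosis that shares its locus with another gene, had 39.5, 34.1 and 16.05 FPKM (-1.25, SE 0.38). Of 17 wax and cuticle genes 11 fell, or 5 under the centred alternative, although their median at 1 h was 0.42. CER1, for alkane synthesis, was at 370 and 520 FPKM in the dark and at 1 h and at 90.0 FPKM after 6 h (-2.03, SE 0.39).

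**Figure D4:**
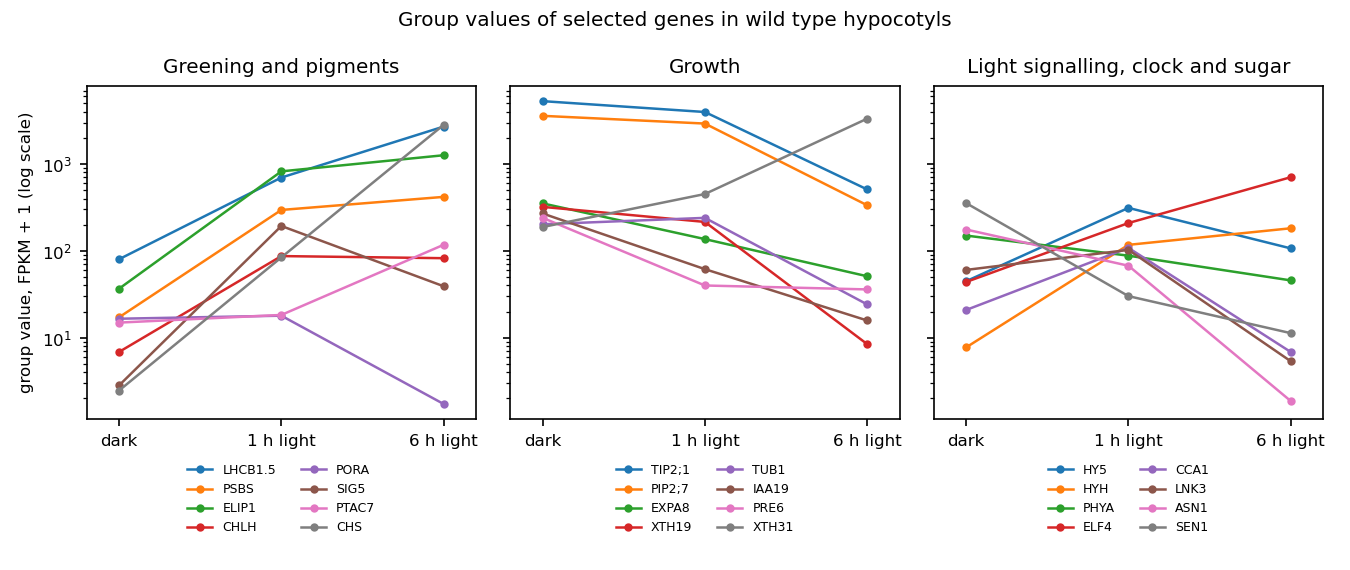
Group values (FPKM + 1, log axis) in the dark, after 1 h and after 6 h of light for 8 genes each of greening and pigments, of growth, and of light signalling, clock and sugar response; lines join the values of a gene and are not spaced to time. SIG5, HY5, CCA1 and LNK3 are highest at 1 h, while XTH19, TUB1 and PORA are near their dark level at 1 h and low at 6 h.

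Among 14 photoreceptor genes 5 rose and 1 fell, or 3 and 1 under the centred alternative. PHYA, for the phytochrome that accumulates in darkness, fell from 149 to 87.0 and 44.7 FPKM (log2 fold -1.71, SE 0.40). CRY3, for a cryptochrome of the organelles, had 1.87, 64.6 and 28.3 FPKM (3.35, SE 0.50), and PHOT2, for the blue-light receptor of chloroplast avoidance movement, 4.36, 20.1 and 41.5 FPKM (2.99, SE 0.44) at a shared locus. PHYC, PHYE, CRY1 and CRY2 were not called. Of 13 repressor and feedback genes of light signalling 6 rose and 1 fell, with a median of 0.46. The fallen gene was FHL, which is not itself a repressor, with 15.7, 9.04 and 2.07 FPKM (-2.45, SE 0.63). RUP2, the repressor of the UV-B receptor, had 6.30, 90.0 and 88.3 FPKM (3.61, SE 0.39), COP1 11.6, 28.8 and 23.5 FPKM (0.96, SE 0.36) and SPA1 11.1, 78.0 and 29.4 FPKM (1.33, SE 0.37).

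Of 13 B-box genes 5 rose and 3 fell, or 1 under the centred alternative, and most were higher at 1 h than at 6 h. The 23.1% that fell was near the 22.0% of all tested genes. BBX30, of a short B-box protein, had 37.03, 548 and 62.9 FPKM (log2 fold 0.75, SE 0.42; q = 0.00986 in the authors' deposited table), whereas BBX22, a partner of HY5, had 33.5, 149 and 187 FPKM (2.44, SE 0.38). In the clock 5 of 19 genes rose (26.3%) and 6 fell (31.6%), where 17.3% of all tested genes rose and 22.0% fell. Under the centred alternative 3 clock genes rose. The morning genes CCA1 and LHY were high at 1 h and low at 6 h, with 19.9, 107 and 5.85 FPKM (-1.61, SE 0.38) and 13.8, 64.2 and 4.22 FPKM (-1.51, SE 0.39). LNK3, a light-induced cofactor gene of the morning, had 59.3, 102 and 4.36 FPKM (-3.49, SE 0.46), and ELF4, of the evening complex, 42.8, 208 and 703 FPKM (4.01, SE 0.40). The 6 h samples were taken later in the day than the dark samples if all were set up together, which the labels do not state. Light and time of day therefore cannot be told apart, for the clock or for any other gene of this comparison.

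Flavonoid enzymes had the highest median of all lists, 4.31, with 11 of 13 genes higher and 0 lower. CHS, for chalcone synthase at the entry of the pathway (TAIR10 chromosome 5, 4488688 to 4495585, a locus it shares with another gene), had 1.47, 83.1 and 2815 FPKM and the largest log2 fold of the table, 10.16 (SE 0.56). CHI, for the isomerase of the next step, had 5.36, 54.7 and 529 FPKM (6.38, SE 0.46), and F3H, for the hydroxylase after it at a shared locus, 4.06, 177 and 702 FPKM (7.12, SE 0.49). FLS1, for flavonol synthase, had 0.227, 20.5 and 411 FPKM (8.39, SE 0.81). The branch to anthocyanins stayed far lower, with DFR at 0.0110, 0.0383 and 10.2 FPKM and LDOX at 0.0343, 0.0407 and 9.06 FPKM, neither of them called (q = 0.300 and 0.423 in the authors' deposited table). MYB12, the activator of flavonol genes, rose from 0.607 to 20.4 and 41.8 FPKM (4.74, SE 0.57), while MYB75, an activator of anthocyanin genes, was at 0.249, 3.78 and 2.00 FPKM (1.26, SE 0.97; q = 0.00359 in the authors' deposited table). MYBL2, which represses anthocyanin genes, fell from 142 to 84.3 and 59.8 FPKM (-1.23, SE 0.40). For sinapate esters, another ultraviolet screen, UGT84A2 rose from 4.44 to 185 and 333 FPKM (5.94, SE 0.42).

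Of 18 genes known from darkness and sugar starvation 12 fell and 0 rose, with a median of -1.49 at 6 h and -1.08 at 1 h. Beside ASN1, SEN1 had 353, 29.1 and 10.3 FPKM (log2 fold -4.97, SE 0.43), the beta-glucosidase gene DIN2 30.5, 4.28 and 0.364 FPKM (-4.53, SE 0.72) and the abundant DRM1 1463, 571 and 382 FPKM (-1.93, SE 0.47). In nitrogen assimilation GLU1, for the ferredoxin-dependent glutamate synthase of chloroplasts, rose from 1.28 to 6.62 and 44.4 FPKM (4.32, SE 0.43), and the nitrate reductase gene NIA1 from 14.0 to 76.2 and 94.1 FPKM (2.67, SE 0.38). ASN2, the relative of ASN1, rose from 4.54 to 13.3 and 60.3 FPKM (3.47, SE 0.43), so the asparagine synthetase genes moved in opposite directions. The nitrate transporter gene NRT1.1 was at 144 FPKM in the dark and 176 FPKM at 1 h, and had fallen to 25.3 FPKM at 6 h (-2.46, SE 0.36). Of 23 tested starch genes 14 rose and 0 fell, led by APS1, of the enzyme that makes ADP-glucose, with 3.94, 8.87 and 28.7 FPKM (2.59, SE 0.42). Of 18 genes of seed oil breakdown 5 fell and 2 rose, or 3 and 1 under the centred alternative. These shares, 27.8% and 11.1%, were near the 22.0% and 17.3% of all tested genes. ICL of the glyoxylate cycle was at 87.2, 265 and 40.3 FPKM (-1.10, SE 0.36).

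Stress genes rose in part. Of 13 tested heat shock genes 10 rose (median 1.62), with the heat shock factor gene HSFA2 at 2.34, 51.1 and 110 FPKM (log2 fold 5.06, SE 0.48) and the chaperone gene HSP101, which shares its locus with another gene, at 7.03, 39.5 and 86.1 FPKM (3.44, SE 0.41). HSC70-1, the constitutive chaperone, was not called, at 738 and 752 FPKM. Of 12 cold and drought genes 6 rose and 1 fell, among them COR78 with 123, 527 and 724 FPKM (2.54, SE 0.44) and RAB18 with 3.33, 6.45 and 66.0 FPKM (3.95, SE 0.46). The labels do not give the temperature in darkness and light, so its part in these rises was not tested. Cytosolic ribosomal proteins hardly moved, with 3 of 25 genes higher and a median of 0.22. Of 19 tested genes of jasmonate and touch 8 fell and 3 rose, or 4 fell under the centred alternative, with the calmodulin-like touch gene TCH3 at 282, 208 and 63.5 FPKM (-2.13, SE 0.41).

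The tissue label was checked with marker lists. CASP1, of the endodermal Casparian strip, was at 869, 734 and 1104 FPKM, sharing its locus with another gene, and KNAT1, a homeobox gene of stems, at 81.0, 88.5 and 105 FPKM, and neither was called. In the endodermis list 3 of 5 genes fell and 0 rose, or 0 fell under the centred alternative. SHR had 21.8, 19.3 and 11.7 FPKM (log2 fold -0.84, SE 0.36), SGR5 10.7, 7.37 and 5.67 FPKM (-0.82; q = 0.00184 in the authors' deposited table) and SCR 33.7, 29.0 and 23.3 FPKM (-0.51; q = 0.0448 in the authors' deposited table). The 16 genes of cotyledons, leaves and the meristem summed to 112 FPKM in the dark and 155 FPKM after 6 h, most of it KNAT1, and 2 of 12 tested rose, AS1 and CUC1 (q = 0.0165 and 0.00612 in the authors' deposited table). The 11 root genes summed to 31.1 and 14.3 FPKM, and 1 of 6 tested rose and 2 fell. The stomatal lineage genes summed to 3.84 and 16.8 FPKM, and 2 of 4 tested rose. MYB60 went from 1.01 to 7.23 FPKM and STOMAGEN from 1.86 to 6.55 FPKM (q = 0.0150 in the authors' deposited table). In cotyledons MYB60 was at 31.0 and 28.0 FPKM and STOMAGEN at 175 and 165 FPKM, in dark and 6 h light. Those values were computed separately by the authors, so they are not compared in level with the hypocotyl values. Of 14 xylem and phloem genes 6 fell by at most 0.68, or 0 under the centred alternative. Epidermal genes split, with LTP1 at 118, 147 and 471 FPKM (log2 fold 1.99, SE 0.36) and PDF1 at 563, 526 and 162 FPKM (-1.79, SE 0.38). The part that shifts in collected tissue may have in the results was not tested.

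The hypocotyl response was compared with that of cotyledons at 6 h, which shares no sample with it. The difference of the log2 ratios was set against its SE, giving a normal p with Benjamini-Hochberg adjustment across the 18153 genes tested in both organs. Each difference named below, hypocotyl minus cotyledon, passed an adjusted threshold of 0.05. The hypocotyl response lay above that of cotyledons for 1087 genes (5.99%) and below it for 1202 genes (6.62%), and 247 and 564 of these had risen in one organ and fallen in the other. The log2 ratios of greening genes were more often larger in hypocotyls, with 71 of 204 above and 4 below. A larger ratio is not a larger rise in FPKM, because it also depends on the dark level. Growth genes lay below cotyledons more often, with 104 of 321 below and 15 above. Members tested in both organs had medians of -0.72 in hypocotyls and 0.25 in cotyledons. In cotyledons 109 growth genes rose and 66 fell. Absolute levels are not compared between the organs because the tables were made separately.

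Chlorophyll synthesis and plastid transcription were among the greening lists that differed between the organs. In plastid transcription 10 of 20 genes lay above and 0 below, with medians of 1.83 in hypocotyls and 0.51 in cotyledons. SIG6 rose by 3.09 in hypocotyls and changed from 52.5 to 69.5 FPKM in cotyledons, without a call, a difference of 3.28 (SE 0.55). For chlorophyll, 8 of 14 magnesium branch genes lay above, and PORB rose in hypocotyls but fell in cotyledons from 2424 to 428 FPKM (difference 3.31, SE 0.63). HY5 likewise fell in cotyledons, from 95.3 to 45.4 FPKM, and rose in hypocotyls (difference 2.34, SE 0.51). Medians of the antenna list over the 19 genes tested in both organs were 2.56 and 1.81, with 4 above and 1 below.

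Several growth lists had medians of opposite sign in the organs. For tubulins 13 of 15 lay below, with medians of -1.44 in hypocotyls and 0.71 in cotyledons, and for aquaporins 10 of 19, with medians of -1.50 and 0.41. TIP2;1 rose in cotyledons from 133 to 1054 FPKM, a difference of -6.37 (SE 0.69), and PIP2;7 rose from 1000 to 1643 FPKM (difference -4.14, SE 0.66). EXPA8 rose in cotyledons from 36.5 to 84.7 FPKM (difference -4.03, SE 0.56) and GA20OX1 from 0.470 to 2.43 FPKM (difference -6.64, SE 1.01). For the cell cycle 11 of 28 lay below (medians -0.40 and 0.88). XTH31 differed the other way, with 320 and 232 FPKM in cotyledons and no call there (difference 4.61, SE 0.61). Cold and drought genes had medians of 0.97 and -1.90, with 9 of 12 above, and COR78 fell in cotyledons from 121 to 17.41 FPKM (difference 5.35, SE 0.61). The starvation genes went down in both organs, with medians of -1.49 and -1.86.

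**Figure D5:**
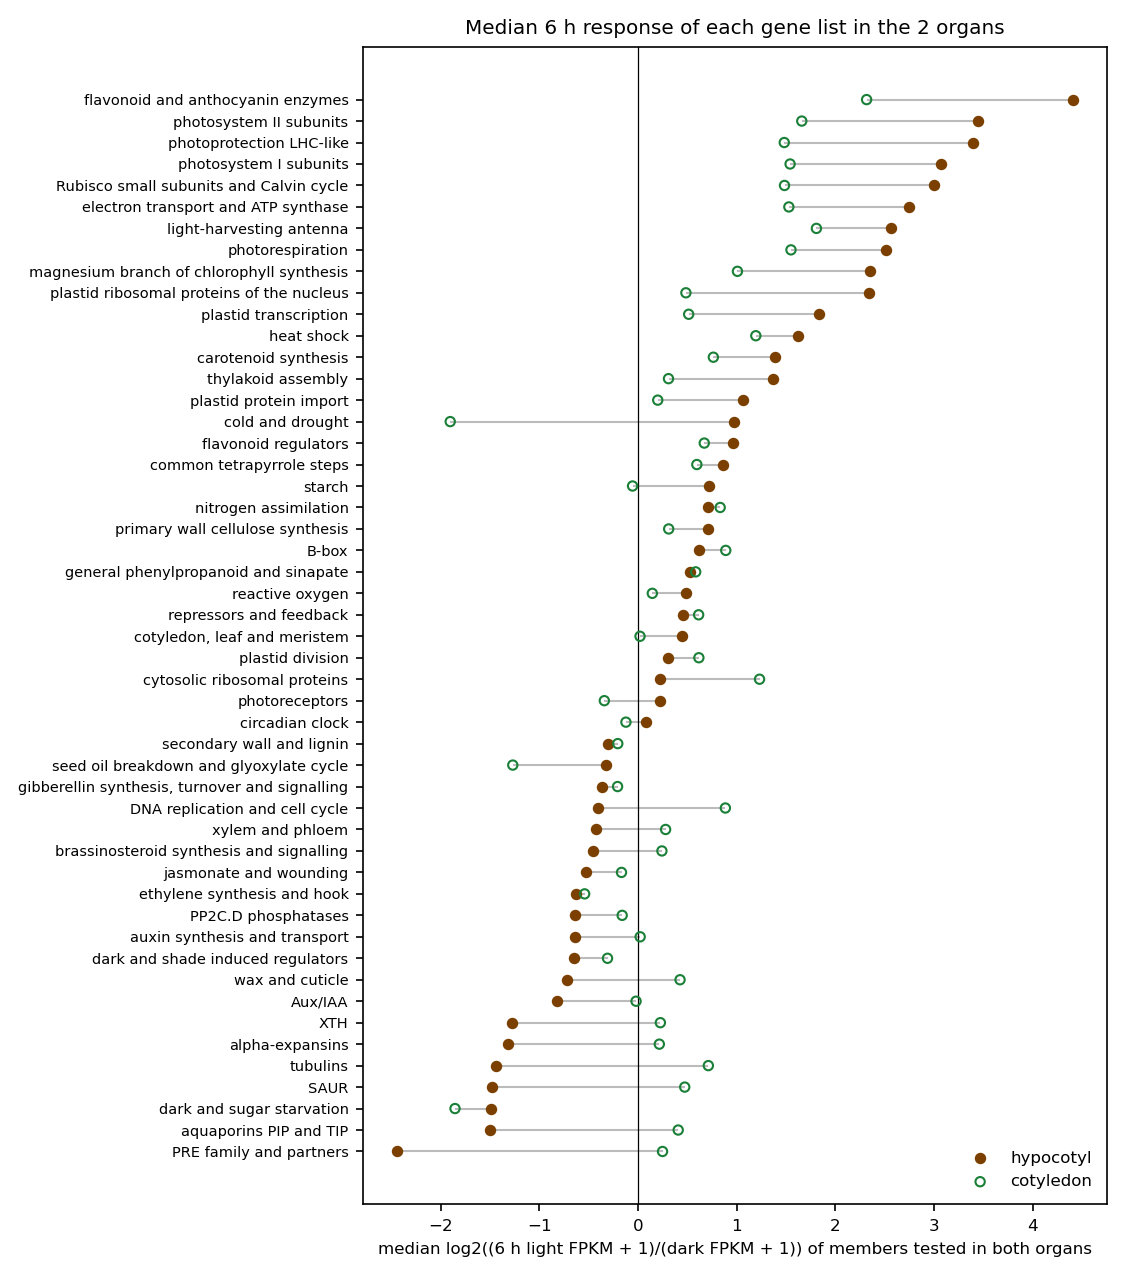
Median log2 fold at 6 h (x axis) of each list with at least 8 members tested in both organs (rows, sorted by the hypocotyl), for hypocotyls (filled brown) and cotyledons (open green). Aquaporins, tubulins, SAUR and cell cycle genes lie below 0 in hypocotyls and above 0 in cotyledons, and cold and drought genes the reverse.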

How the data were processed

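Per the labels' protocols, RNA came from a Qiagen plant kit and was sequenced as mRNA on an Illumina instrument. TopHat, Cufflinks and the TAIR10 build are named by the submitters' processing notes, without versions. The sources used here give no settings. Of 6 deposited tables, 3 were used. Each gives, per gene, 1 value per group, taken as the authors' FPKM from the column layout since the header names no unit, and the authors' test statistic (a score), p-value, q-value and test status. Read counts are not in these tables, so depth is unknown and no interval or floor is given. No value of a single sample was used, so p-values carry the spread between samples only through the authors' model.

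Log2 folds, SEs, list counts and the difference between organs (two-sided normal p from the SEs, Benjamini-Hochberg adjustment) were computed in Python 3.11 with pandas, NumPy and SciPy. The computation of the organ test was tried on simulated data with known changes. That simulation assumed the same SEs and a normal spread, so it cannot show whether they hold for these data. In the dark, the 1 h and 6 h hypocotyl tables hold identical values. The 57 lists (932 genes) were chosen with earlier results of these data known; 7 symbols that matched no gene or repeated one were left out. Genes were named from the 10 largest rises and falls, members of short lists and, of longer ones, the leading risen and fallen genes, a few of the others to show levels, the 6 leading genes on either side of the organ test that reached 5 FPKM, and called genes among the 20 most abundant. A near copy is a coding sequence at least 95% identical over at least 80%. Of 33557 gene identifiers 32810 matched RefSeq (TAIR10.1), which supplied names and promoters; 878 called genes share a locus with another gene, where reads may be split. Gene positions are those the authors deposited, whose bounds were identical to RefSeq's for 8985 genes. Positions of the G-box count from RefSeq's gene starts, which can differ from the gene bounds given, as for CHS and ASN1. Alternatives were other q thresholds, p-values, centring, pseudocounts and filters on low values.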

Additional observations from a re-analysis of the deposited data

Results flagged for a closer look

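The genes listed here had different 6 h responses in hypocotyls and cotyledons, by the normal test on the difference of the log2 ratios with Benjamini-Hochberg adjustment; on either side the 6 leading genes that reached 5 FPKM are given. Differences are hypocotyl minus cotyledon, on the log2 ratio scale. The number of samples that show a direction is not known, since each group has 1 value.

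Above cotyledons, the cold and drought gene KIN1 differed by 8.15 (SE 0.66), rising from 14.5 to 516 FPKM in hypocotyls and falling from 161 to 20.1 FPKM in cotyledons. Its neighbour and near copy KIN2 differed by 5.64 (SE 0.57). CHS differed by 8.94 (SE 0.76), with 309 and 1203 FPKM in cotyledons, and FLS1 by 8.72 (SE 0.90), with 22.5 and 96.6 FPKM there. The sinapate gene UGT84A2 differed by 5.74 (SE 0.55). DAA1, for a P-loop ATPase, differed by 5.97 (SE 0.55), rising from 4.28 to 14.4 FPKM in hypocotyls and falling from 83.3 to 4.47 FPKM in cotyledons.

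Below cotyledons, AGP21, an arabinogalactan peptide gene with a near copy, differed by -7.29 (SE 0.59), falling from 1481 to 237 FPKM in hypocotyls and rising from 56.8 to 1421 FPKM in cotyledons. EXPA1 differed by -6.82 (SE 0.56), falling from 111 to 23.2 FPKM and rising from 32.8 to 774 FPKM in cotyledons, and the sterol methyltransferase gene SMT3 by -6.05 (SE 0.53). The others were short transcripts: the microRNA precursor MIR171b with -5.33 (SE 0.21), the small nucleolar RNA AT4G39366 with -7.38 (SE 0.51) and AT4G37095 with -9.36 (SE 0.75). None of these short genes was called in hypocotyls (q = 0.446, 0.211 and 0.427 in the authors' deposited table), and with SEs taken from the authors' p-values they no longer passed the organ test, while the other 9 genes did.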

How the results depend on the processing

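No paired analysis was possible because each group has 1 deposited value and no sample numbers; leaving out a sample was not possible for the same reason. The counts of called genes, 3440 higher and 4365 lower, stayed within 1.5 times with q under 0.01, with adjustment over the table alone and with at least 1 FPKM. A normal p from the authors' statistic gave 1910 and 1968, the same with centred folds 2242 and 1640, and a minimum of 2-fold 1924 and 1863; the normal p leaves out genes with no SE. In the greening lists the centred alternative gave 163 higher and 1 lower in place of 177 and 4, and in the growth lists 127 lower and 19 higher in place of 190 and 34. Of 114 list counts it lowered 38 by more than 1.5 times, and q under 0.01 lowered 10. With SEs from the authors' p-values the organ test called 2298 genes above and 2748 below in place of 1087 and 1202; centring and a minimum of 1 FPKM kept both within 1.5 times. Of 57 list medians, 6 moved by more than the median SE of their members with a pseudocount of 0.1, 8 with 5, and 1 with the filter on low values, with no change of sign among medians larger than that SE. The flavonoid enzyme median was 6.09 and 2.90 with these pseudocounts. The median SE was 0.58 for genes averaging 1 to 5 FPKM and 0.38 over 50 FPKM.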

Other observations

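Families found by words in RefSeq's product names, chosen after the values were seen and given with no test, describe further wall and cytoskeleton genes. Their counts are to be read against all tested genes, of which 17.3% rose and 22.0% fell. Of 44 arabinogalactan protein genes 27 fell and 4 rose, with a median log2 fold of -0.81, and their summed level went from 17500 to 7277 FPKM. AGP4 had 2488, 927 and 90.3 FPKM in dark, 1 h and 6 h light (log2 fold -4.77, SE 0.36), and the fasciclin-like gene FLA9 2183, 1439 and 150 FPKM (-3.85, SE 0.50), while FLA15 rose from 49.8 to 134 and 207 FPKM (2.03, SE 0.35). Of 52 genes for pectin methylesterases and their inhibitors 20 fell and 10 rose, and of 46 class III peroxidases 19 fell and 3 rose. Glycosyl hydrolase family 9 did not share this balance, with 4 of 12 genes higher and 3 lower and sums of 1259 and 1227 FPKM, although GH9B13 of this family was among the largest falls. Of 59 genes for kinesins and microtubule-associated proteins 28 fell and 2 rose; one of the risen, KAC1, a kinesin-like gene known from chloroplast movement, went from 4.16 to 29.1 and 43.8 FPKM (3.12, SE 0.43). Among 468 genes of pentatricopeptide and like repeats, many of which handle organelle RNA, 98 rose and 19 fell, with a median of 0.19. Proteasome subunit genes had 7 of 42 higher, near the share of all tested genes, and 1 lower.

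Genes of the organelle genomes moved little beside the nuclear genes for plastid proteins. In the chloroplast genome 7 of 66 tested genes were higher and 2 lower, with a median of -0.05, and in the mitochondrial genome 0 of 42 were called by the authors' deposited q-value. Transcripts of organelles often lack long poly(A) tails, and the labels name the libraries as mRNA libraries, so these values may not reflect the level of organelle RNA.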
